A study of Mus musculus with 16 samples.

Results

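Arginine is the shared substrate of nitric oxide synthase and the arginases, and 9 genes of this branch of metabolism were followed here in mouse bone marrow derived macrophages (BMDMs). They were chosen by name, as every row of the gene count table whose symbol was Slc7a1, Slc7a2, Arg1, Arg2, Nos2, Gch1, Ass1, Asl or Odc1, which gave 9 of the 22287 genes in the table. RNA-seq was performed on 16 libraries of cultured bone marrow of C57BL/6J mice aged 8 weeks, in 8 groups of 2 libraries. Growth factor was given for 7 days, as GM-CSF, which acts on granulocytes and macrophages, at 20 ng/ml (GM) or as the macrophage factor M-CSF at 50 ng/ml (M), either on dishes treated to promote adhesion (TC) or on untreated dishes (noTC). According to the study, cells were seeded more densely for GM than for M, so growth factor and seeding density cannot be told apart. Cells were then treated for 3 h with vehicle or with 100 ng/ml LPS, a bacterial cell wall component sensed by TLR4. The vehicle groups are called steady state (M-TC, M-noTC, GM-TC and GM-noTC), and the LPS groups have the same names followed by LPS. No group carried a genetic change. The study describes the replicates of a group as biological, without saying whether they came from separate mice or separate cultures of 1 mouse. The p-values rest on the spread between such replicates, estimated over all 8 groups and moderated across genes, not on the groups compared alone.

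Macrophages take up arginine through cationic amino acid transporters, of which Slc7a1 encodes the broadly expressed form CAT-1 and Slc7a2 the form CAT-2 that inflammatory stimuli induce. Inducible nitric oxide synthase, the product of Nos2, converts arginine to nitric oxide and citrulline and needs tetrahydrobiopterin, whose synthesis starts with the GTP cyclohydrolase encoded by Gch1. Argininosuccinate synthase (Ass1) and argininosuccinate lyase (Asl) turn citrulline back into arginine, while cytosolic arginase 1 (Arg1) and mitochondrial arginase 2 (Arg2) split arginine into urea and ornithine, from which ornithine decarboxylase (Odc1) makes the polyamine putrescine. Nos2 is widely used as a mark of macrophages activated by microbial products, and Arg1 as a mark of macrophages exposed to type 2 cytokines.

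Levels are given as CPM, counts scaled to a common library size after correction by the trimmed mean of M-values (TMM), and comparisons as log2 fold changes ± SE with Benjamini-Hochberg adjusted p-values of edgeR's quasi-likelihood test over 12514 genes. A change was called at an adjusted p under 0.05, and all 9 genes passed the filter on low counts. The libraries held from 17527802 to 31458363 counts, so that 3 counts corresponded to between 0.0954 and 0.171 CPM without TMM scaling. All 8 macrophage markers had counts in all 8 groups, with a summed level of between 20528 and 47796 CPM per library. Most of this sum was Lyz2, with group means from 15434 to 41303 CPM. Lyz2, Itgam and Mertk were higher in GM than in M in each matched pair of groups, and Adgre1, Csf1r, Cd68, Fcgr1 and Cd14 were lower. Markers of other cells differed between the growth factors. The 8 neutrophil markers summed to between 12.7 and 44.7 CPM in GM libraries, mostly Ngp, S100a8, S100a9 and Ltf, and to at most 2.05 CPM in M libraries. Ly6g, Mpo and Elane were at 0 in M, and their group means in GM reached only 0.129, 0.303 and 0.348 CPM. The 5 dendritic cell markers summed to between 42.2 and 83.8 CPM in GM, mostly Clec9a and Ccr7, and at most 4.29 CPM in M. Within this list Flt3 reached at most 0.410 CPM in GM. Xcr1 after LPS was 2.10 (TC) and 2.91 CPM (noTC) in GM and 2.14 and 2.81 CPM in M. Because RNA was measured in bulk, fewer cells of one kind and less RNA per cell cannot be told apart. Hepatocyte markers, relevant since hepatocytes also use Arg1, Ass1 and Asl, reached at most 0.186 CPM in any library. The 5 cardiac muscle markers summed to between 15.1 and 47.6 CPM in the 4 libraries at steady state on TC dishes and to at most 0.813 CPM elsewhere. The replicates of GM-TC differed most, with a chi-square per gene of 12.9 against between 1.92 and 5.27 in the other groups.

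The transporters and the arginases are pairs of related genes, and their coding sequences show how far reads from one can be told from the other. In the GENCODE vM21 transcripts the coding sequences of Arg1 and Arg2 were identical at 64.1% of 958 aligned positions, and the longest run they shared was 12 bases. It is shown here in capitals with 30 bases on either side, at coding positions 523 to 534 of Arg1 and 580 to 591 of Arg2.
Arg1: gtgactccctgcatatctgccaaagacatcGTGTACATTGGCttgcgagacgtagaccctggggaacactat
Arg2: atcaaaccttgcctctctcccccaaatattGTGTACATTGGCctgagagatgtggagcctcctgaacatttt

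For Slc7a1 and Slc7a2 identity was 65.5% over 1828 aligned positions, and the longest run they shared was 23 bases.

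No 31-base word of the Arg1, Arg2 or Nos2 transcripts occurred in a transcript of another gene, and the share of such words was 0.695% for Slc7a1, 2.03% for Slc7a2, 1.24% for Gch1 and 0.547% for Asl. Ass1 and Odc1 were different, since 43.1% and 31.3% of their words also occurred elsewhere, most often in Gm5424 and in Gm7993, so that the counts of Ass1 and Odc1 are uncertain by what the counting assigned to such copies, for which no row was used here. Gene-level counts also do not separate the isoforms of Slc7a2.

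**Figure D1:**
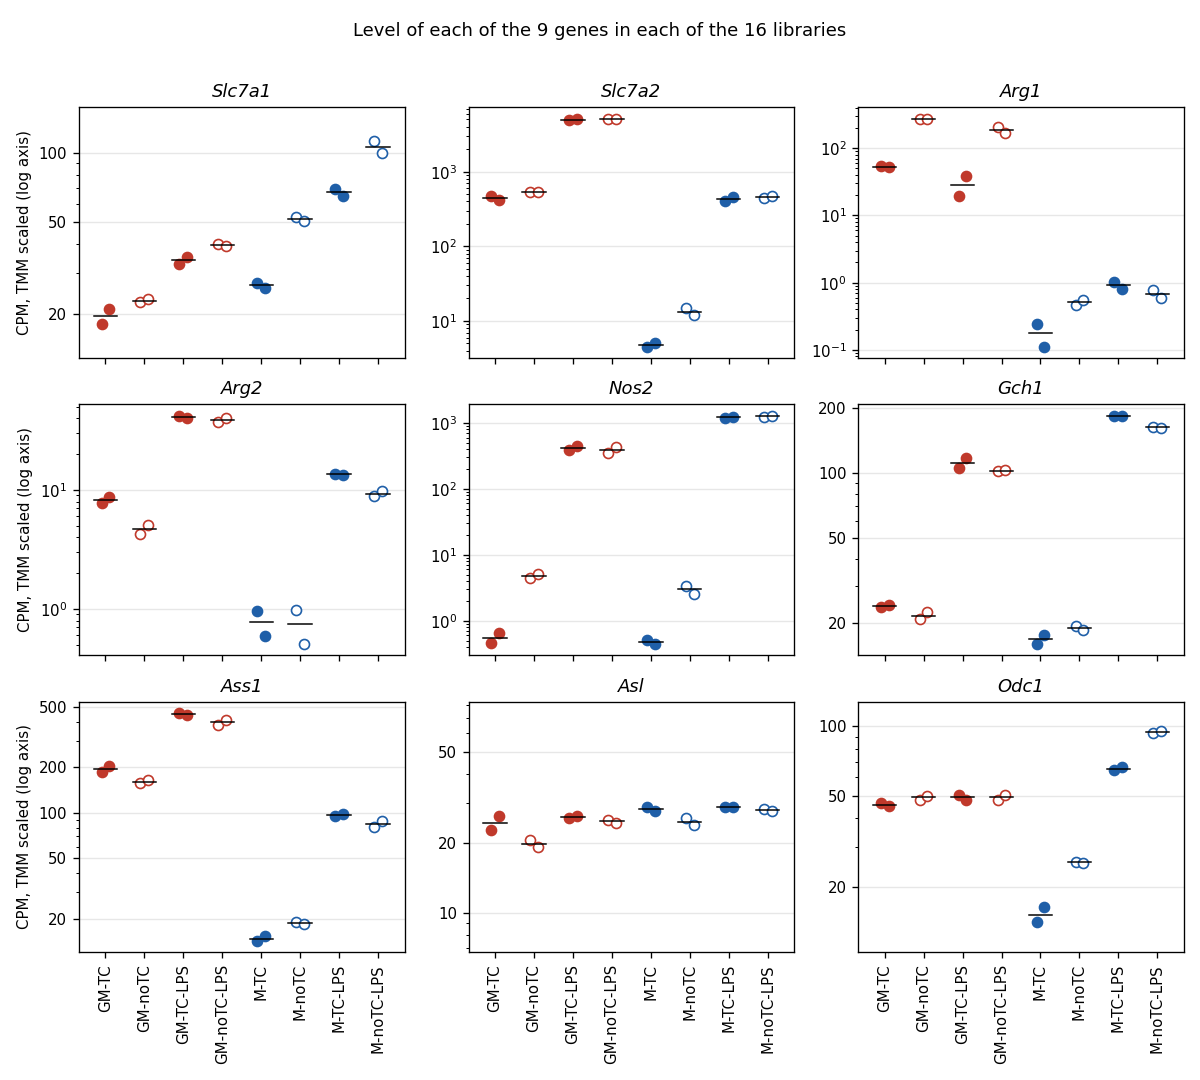
TMM scaled CPM on a log axis for each gene, with 1 point per library, a line at the mean of the 2 libraries of a group, red for GM, blue for M, filled for TC and open for noTC. Slc7a2, Arg1, Arg2 and Ass1 sit higher in GM than in M in each matched pair of groups, Nos2 reaches between 1185 and 1285 CPM in M after LPS, and Asl stays between 19.3 and 28.9 CPM in all 16 libraries.

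Among the transporters, Slc7a2 (chr8:40862396-40922308, plus strand, in GRCm38 as all positions here) had the wider range, from 4.55 CPM in an M-TC library to 5139.7 CPM in a GM-noTC-LPS library. At steady state its level was 479 and 412 CPM in GM-TC, 531 and 532 CPM in GM-noTC, 4.55 and 5.05 CPM in M-TC, and 14.8 and 11.9 CPM in M-noTC. Upon LPS challenge the level was 4869 and 5047 CPM in GM-TC-LPS, 5139.7 and 5097 CPM in GM-noTC-LPS, 402 and 453 CPM in M-TC-LPS, and 445 and 477 CPM in M-noTC-LPS. The M libraries after LPS overlapped those of GM-TC at steady state and were below those of GM-noTC. LPS raised Slc7a2 in each culture, by 3.48 ± 0.08 on TC (adjusted p = 2.0e-20) and 3.27 ± 0.08 on noTC (5.2e-20) in GM cells, and by 6.47 ± 0.11 on TC (7.3e-23) and 5.12 ± 0.09 on noTC (2.9e-22) in M cells. GM exceeded M by 6.53 ± 0.11 on TC (adjusted p = 2.5e-22) and 5.33 ± 0.09 on noTC (5.0e-22) at steady state, and by 3.53 ± 0.08 (3.6e-20) and 3.47 ± 0.08 (4.6e-20) after LPS. With the subtraction described with Nos2, Slc7a2 rose by 6.64 with LPS in M-noTC, and GM exceeded M by 6.83 on noTC at steady state.

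Slc7a1 (chr5:148327410-148399904, minus strand) stood in the opposite order between the growth factors. Its level was 18.1 and 20.9 CPM in GM-TC, 22.4 and 23.2 CPM in GM-noTC, 27.2 and 25.9 CPM in M-TC, and 52.8 and 50.4 CPM in M-noTC. After LPS it was 32.9 and 35.3 CPM in GM-TC-LPS, 39.98 and 39.4 CPM in GM-noTC-LPS, 69.5 and 64.7 CPM in M-TC-LPS, and 112 and 99.2 CPM in M-noTC-LPS. No neighbouring groups in the order of these means overlapped, and M was above GM in each matched pair. GM minus M was -0.44 ± 0.08 on TC at steady state (adjusted p = 0.000117), -1.18 ± 0.08 on noTC at steady state (6.7e-12), -0.98 ± 0.08 on TC after LPS (1.7e-10) and -1.41 ± 0.07 on noTC after LPS (1.3e-13). LPS raised Slc7a1 by between 0.80 ± 0.08 in GM-noTC (adjusted p = 1.0e-08) and 1.34 ± 0.08 in M-TC (3.9e-13). In M cells noTC dishes gave more Slc7a1 than TC dishes, by 0.96 ± 0.07 at steady state (adjusted p = 3.1e-09) and 0.65 ± 0.07 after LPS (5.6e-07). In GM cells the differences of 0.22 ± 0.09 and 0.22 ± 0.08 were not called (adjusted p = 0.139 and 0.181), and the dish effect in GM minus that in M was -0.74 ± 0.11 at steady state (adjusted p = 0.000148).

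Arg1 (chr10:24915221-24927484, minus strand) differed by dish in GM cells. In GM-noTC it stood at 275.2 and 275.3 CPM against 54.1 and 51.9 CPM in GM-TC, and after LPS at 207 and 165 CPM in GM-noTC-LPS against 19.6 and 38.0 CPM in GM-TC-LPS. The noTC libraries were above the TC libraries without overlap both times, although the GM-TC-LPS replicates were themselves far apart. The difference between dishes in GM cells was 2.38 ± 0.14 at steady state (adjusted p = 2.6e-10) and 2.68 ± 0.15 after LPS (5.7e-10), a fold of 5.20 and 6.41. Leaving out 1 library at a time gave values of 2.35 to 2.41 at steady state, and of 2.29, without GM-TC-LPS replicate 1, and 3.25, without GM-TC-LPS replicate 2, after LPS. Other markers also moved with the dish in GM cells at steady state, and their part in the Arg1 difference was not tested. The neutrophil markers summed to 12.7 and 16.7 CPM in GM-TC and 24.0 and 20.2 CPM in GM-noTC, and 5 mast cell markers, nearly all of it Kit, to 32.6 and 28.1 CPM in GM-TC and 18.3 and 19.3 CPM in GM-noTC, with Mcpt4 at 0 in both. The cardiac muscle markers summed to 34.3 and 15.1 CPM in GM-TC and to at most 0.204 CPM in GM-noTC. A list of 5 stromal markers summed to 4.54 and 4.47 CPM in GM-TC and to 1.92 and 2.33 CPM in GM-noTC. After LPS the neutrophil markers summed to 28.3 and 36.2 CPM in GM-TC-LPS and 44.7 and 33.9 CPM in GM-noTC-LPS, the mast cell markers to 25.0 and 23.2 CPM against 18.0 and 22.3 CPM, and the cardiac muscle markers to at most 0.237 CPM on either dish. The stromal markers then summed to 16.7 and 7.57 CPM in GM-TC-LPS and to 6.02 and 6.25 CPM in GM-noTC-LPS.

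LPS lowered Arg1 in GM cells. It fell by 0.87 ± 0.16 on the log2 scale on TC (adjusted p = 6.7e-05) and by 0.56 ± 0.13 on noTC (0.000754), and the groups with and without LPS did not overlap on either dish. The size on TC rested on the GM-TC-LPS libraries, as the value was -0.48 without GM-TC-LPS replicate 1 and -1.43 without replicate 2. Whether it differed between dishes could not be settled, since the interaction was 0.30 ± 0.21 (adjusted p = 0.729) with both libraries, -0.08 (0.931) without GM-TC-LPS replicate 1 and 0.87 (0.00317) without replicate 2. In M cells Arg1 was close to the limit of detection. M-TC had 6 and 3 counts (0.239 and 0.112 CPM), M-noTC 14 and 24 counts (0.472 and 0.557 CPM), M-TC-LPS 21 and 14 counts (1.03 and 0.813 CPM) and M-noTC-LPS 15 and 12 counts (0.770 and 0.599 CPM). The rise upon LPS challenge in M-TC of 2.39 ± 0.94 (adjusted p = 0.0265) rested on these counts and was not called without M-TC replicate 2 (1.94, adjusted p = 0.124), M-TC-LPS replicate 1 (2.19, 0.135) or M-TC-LPS replicate 2 (2.54, 0.054), and that in M-noTC of 0.38 ± 0.73 was not called (0.651). GM exceeded M by between 4.95 ± 0.33 on TC after LPS (adjusted p = 9.5e-12) and 9.03 ± 0.25 on noTC at steady state (2.0e-18), with 38 counts in M-noTC behind the second value.

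Arg2 (chr12:79130777-79156301, plus strand) rose with LPS in all 4 cultures. It was 7.72 and 8.82 CPM in GM-TC, 4.24 and 5.10 CPM in GM-noTC, 0.957 and 0.599 CPM in M-TC, and 0.977 and 0.511 CPM in M-noTC. After LPS the values were 42.1 and 40.2 CPM in GM-TC-LPS, 37.4 and 40.4 CPM in GM-noTC-LPS, 13.7 and 13.5 CPM in M-TC-LPS, and 8.83 and 9.73 CPM in M-noTC-LPS. Within each growth factor all LPS libraries were above all steady state libraries. LPS raised Arg2 by 2.31 ± 0.12 on TC (adjusted p = 7.6e-14) and 3.05 ± 0.13 on noTC (1.4e-15) in GM cells, and by 4.13 ± 0.20 on TC (1.8e-14) and 3.71 ± 0.20 on noTC (1.3e-13) in M cells. GM cells had more Arg2 than M cells in the 4 matched pairs, by between 1.60 ± 0.11 on TC after LPS (adjusted p = 2.9e-11) and 3.42 ± 0.21 on TC at steady state (3.8e-12). Where the dish changed Arg2 it was lower on noTC, at -0.83 ± 0.15 in GM at steady state (adjusted p = 0.000857) and -0.55 ± 0.13 in M after LPS (0.00426), the latter not called without M-noTC-LPS replicate 1 (-0.48, adjusted p = 0.058). The corresponding differences in GM after LPS, -0.08 ± 0.10, and in M at steady state, -0.13 ± 0.33, were not called (adjusted p = 0.808 and 0.814).

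Nos2 (chr11:78920787-78960254, plus strand) had the largest response to LPS among the 9 genes in all 4 cultures. Before LPS it was 0.454 and 0.644 CPM in GM-TC, 4.52 and 5.10 CPM in GM-noTC, 0.518 and 0.449 CPM in M-TC, and 3.40 and 2.55 CPM in M-noTC. Afterwards it was 393 and 439.7 CPM in GM-TC-LPS, 355 and 427 CPM in GM-noTC-LPS, 1185 and 1241 CPM in M-TC-LPS, and 1240.3 and 1285 CPM in M-noTC-LPS. LPS raised it by 9.53 ± 0.15 on TC (adjusted p = 4.5e-23) and 6.34 ± 0.11 on noTC (2.2e-22) in GM cells, and by 11.28 ± 0.15 on TC (1.7e-24) and 8.76 ± 0.11 on noTC (2.2e-24) in M cells. After LPS the M libraries were all above the GM libraries, with GM minus M at -1.54 ± 0.07 on TC (adjusted p = 3.8e-14) and -1.69 ± 0.07 on noTC (8.1e-15). The dish made a difference of -0.09 ± 0.07 in GM and 0.06 ± 0.07 in M, neither of them called (adjusted p = 0.669 and 0.623). The libraries of the 2 dishes overlapped in both.

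At steady state Nos2 was higher on noTC than on TC dishes, by 3.10 ± 0.27 in GM (adjusted p = 1.2e-07) and 2.58 ± 0.29 in M (6.0e-07), which rested on between 9 and 16 counts in the TC libraries and between 101 and 138 counts in the noTC libraries. These differences were compared with the level of the same gene in the 10 libraries that were neither on TC at steady state nor of the same group, on the scale of library size only. The excess of noTC over TC was 0.907% of that level for Nos2 in GM and 0.648% in M, 0.629% for Slc7a2 in M and 0.482% for Arg1 in M. Genes outside the 9 that were at 100 CPM or more in the 10 libraries and under 0.1% of it in the TC pair had an excess of between 0.666% and 0.760% in GM (5 genes, among them Il12b, Il6 and Cxcl1) and between 0.520% and 0.845% in M (13 genes). With the median of these shares, 0.675% in GM and 0.630% in M, subtracted from the noTC libraries at steady state, the dish difference was 1.56 for Nos2 in GM (adjusted p = 0.065), -0.03 for Nos2 in M (0.985), -0.06 for Slc7a2 in M (0.877, from 1.46 ± 0.13 and 1.6e-08 before) and -1.02 for Arg1 in M (0.664, from 1.56 ± 0.95 and 0.252). Arg1 in GM kept a difference of 2.39 (adjusted p = 1.7e-09), its excess being 726% of the level in the other libraries. The source of the common share was not tested. After the subtraction the response of Nos2 to LPS was 7.88 in GM-noTC and 11.38 in M-noTC, and GM exceeded M on noTC at steady state by 1.80 (adjusted p = 0.00159), against 0.73 ± 0.17 (0.000761) before. The share was taken as fixed, so the p-values after the subtraction leave out its uncertainty. With library size only, the subtraction took Nos2 from 5.42 to 1.84 CPM in GM-noTC and from 4.11 to 0.766 CPM in M-noTC.

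Gch1 (chr14:47153895-47189413, minus strand) was between 16.1 and 24.3 CPM in the 8 libraries at steady state and between 102 and 185 CPM in the 8 after LPS. The latter split by growth factor, with 105 and 118 CPM in GM-TC-LPS and 102 and 103 CPM in GM-noTC-LPS, against 185 and 184 CPM in M-TC-LPS and 163.2 and 163.0 CPM in M-noTC-LPS. LPS raised Gch1 by 2.21 ± 0.07 on TC (adjusted p = 7.1e-18) and 2.24 ± 0.07 on noTC (5.4e-18) in GM cells, and by 3.44 ± 0.07 on TC (2.5e-21) and 3.10 ± 0.07 on noTC (8.0e-21) in M cells. The order of the growth factors turned with LPS, as GM exceeded M by 0.51 ± 0.08 on TC at steady state (adjusted p = 6.7e-06) and GM minus M was -0.73 ± 0.06 (3.5e-10) after LPS. On noTC the steady state difference of 0.19 ± 0.07 (adjusted p = 0.0254) became -0.10 with library size only and was not called without GM-noTC replicate 2 (0.13, adjusted p = 0.252), M-noTC replicate 1 (0.21, 0.064) or M-noTC replicate 2 (0.15, 0.189), while after LPS it was -0.67 ± 0.06 (1.6e-09). After LPS, M-noTC-LPS was lower than M-TC-LPS, at -0.18 ± 0.06 (adjusted p = 0.031), and this was not called without any 1 of the 4 libraries (between -0.17 and -0.18, adjusted p between 0.094 and 0.131).

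The stretch before the start of Gch1 is shown since this gene rose in all 4 cultures with Nos2, whose promoter is not shown. It is chr14:47189414-47189663 of GRCm38.p6 on the minus strand, from RefSeq, 250 bases that end at the base before the transcription start, with a match to the NF-κB consensus in capitals at -10 to -1 and a match to the TATA box letters TATAAA, read on the opposite strand, in capitals at -188 to -183. A match to the C/EBP core TTNNGNAA at -153 to -146 is left in lower case.
Gch1: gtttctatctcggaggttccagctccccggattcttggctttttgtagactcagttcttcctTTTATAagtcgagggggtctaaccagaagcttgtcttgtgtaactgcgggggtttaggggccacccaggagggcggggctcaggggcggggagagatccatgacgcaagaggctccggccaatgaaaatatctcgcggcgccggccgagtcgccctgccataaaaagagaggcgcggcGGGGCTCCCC

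The stretch before the RefSeq start of Ass1, which LPS also raised in all 4 cultures, is chr2:31470020-31470269 of the same build on the plus strand, and the match to the E-box CACGTG is in capitals at -36 to -31. GENCODE vM21 places the start of Ass1 upstream of the RefSeq start, so the end of the stretch, E-box included, lies inside the gene as GENCODE gives it.
Ass1: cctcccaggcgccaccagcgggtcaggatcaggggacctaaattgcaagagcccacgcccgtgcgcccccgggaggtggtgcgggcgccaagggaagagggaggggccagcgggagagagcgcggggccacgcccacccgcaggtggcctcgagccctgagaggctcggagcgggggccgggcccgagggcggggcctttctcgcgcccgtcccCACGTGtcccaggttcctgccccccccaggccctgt

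Both strands were searched in 32851 promoters of this length, of which 3.90% held the NF-κB consensus, 36.9% the C/EBP core, 6.02% the E-box and 12.4% the TATA box. The GAS element TTCNNNGAA, in 7.02% of them, and the cAMP response element TGACGTCA, in 1.55%, were searched too. Of the other genes with an entry, Slc7a1 held a GAS element, a C/EBP core and a TATA box before 1 of its 2 starts, and Odc1 held no match. A match is a description of the letters only.

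Ass1 (chr2:31470207-31520672, plus strand) was far higher in GM than in M cells. At steady state it was 186 and 204 CPM in GM-TC, 158 and 164 CPM in GM-noTC, 14.3 and 15.3 CPM in M-TC, and 19.1 and 18.4 CPM in M-noTC. After LPS it was 458 and 446 CPM in GM-TC-LPS, 383 and 411 CPM in GM-noTC-LPS, 96.1 and 98.1 CPM in M-TC-LPS, and 80.2 and 89.1 CPM in M-noTC-LPS. GM libraries at steady state were above M libraries after LPS. The GM excess was 3.72 ± 0.07 on TC and 3.10 ± 0.07 on noTC at steady state (adjusted p = 4.8e-21 and 3.6e-20), a fold of 13.2 and 8.59, and 2.22 ± 0.06 and 2.23 ± 0.06 after LPS (2.5e-18 and 2.8e-18). LPS raised Ass1 by 1.21 ± 0.06 on TC and 1.30 ± 0.06 on noTC in GM cells, and by 2.71 ± 0.07 on TC and 2.18 ± 0.07 on noTC in M cells, with adjusted p of at most 3.2e-14. The dish effects were small: noTC minus TC was -0.28 ± 0.06 in GM at steady state (adjusted p = 0.00394), 0.34 ± 0.08 in M at steady state (0.00294) and -0.20 ± 0.06 in M after LPS (0.0283). The first was not called without GM-noTC replicate 1 (-0.26, adjusted p = 0.084), the second without M-TC replicate 1 (0.28, 0.059), and the last without M-TC-LPS replicate 1 (-0.21, 0.082), M-TC-LPS replicate 2 (-0.18, 0.125) or M-noTC-LPS replicate 1 (-0.12, 0.329).

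Asl (chr5:130011258-130029247, minus strand), the next enzyme of the same route, changed little, from 19.3 CPM in GM-noTC to 28.9 CPM in M-TC-LPS over all 16 libraries. Its LPS differences were 0.08 ± 0.08 in GM-TC and 0.03 ± 0.08 in M-TC, not called, and 0.32 ± 0.08 in GM-noTC (adjusted p = 0.00114) and 0.17 ± 0.08 in M-noTC (0.046), and with library size only all 4 turned negative, between -0.18 and -0.80. The value in M-noTC was not called without M-noTC replicate 2 (0.13, adjusted p = 0.238), M-noTC-LPS replicate 1 (0.16, 0.149) or M-noTC-LPS replicate 2 (0.18, 0.102), nor with a replicate block (adjusted p = 0.052). On noTC Asl was lower than on TC in GM at steady state, at -0.31 ± 0.08 (adjusted p = 0.0188), which was not called without GM-TC replicate 2 (-0.19, adjusted p = 0.275), GM-noTC replicate 1 (-0.36, 0.053) or GM-noTC replicate 2 (-0.26, 0.192). GM minus M at steady state was -0.19 ± 0.08 on TC (adjusted p = 0.0333), not called without GM-TC replicate 1 (-0.12, 0.248) or M-TC replicate 1 (-0.18, 0.121), and -0.32 ± 0.08 on noTC (0.00101).

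Odc1 (chr12:17544794-17551505, plus strand), the entry into polyamine synthesis, responded to LPS in M cells and stood at one level in GM cells with TMM scaling, though not with library size only. The 8 GM libraries had 45.1 to 50.5 CPM, with or without LPS and on either dish. M-TC had 14.1 and 16.4 CPM, M-noTC 25.7 and 25.6 CPM, M-TC-LPS 64.6 and 66.5 CPM and M-noTC-LPS 93.1 and 95.1 CPM, so the M groups were below GM at steady state and above it after LPS, with no overlap among them. LPS raised Odc1 by 2.10 ± 0.07 in M-TC (adjusted p = 3.6e-17) and 1.87 ± 0.06 in M-noTC (4.2e-17). In GM-TC and GM-noTC the differences were 0.11 ± 0.07 and 0.00 ± 0.06, not called (adjusted p = 0.151 and 0.978), and with library size only they were -0.37 and -0.51 (adjusted p = 3.6e-05 and 4.6e-07), where the median of all genes was -0.53 and -0.54. The LPS response in GM minus that in M was -1.99 ± 0.10 on TC (adjusted p = 4.3e-13) and -1.87 ± 0.09 on noTC (5.6e-13). As for Slc7a1, M cells had more Odc1 on noTC dishes, by 0.75 ± 0.07 at steady state (adjusted p = 9.9e-08) and 0.52 ± 0.06 after LPS (2.4e-06), against 0.10 ± 0.06 and -0.00 ± 0.07 in GM, which were not called (0.396 and 0.994).

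**Figure D2:**
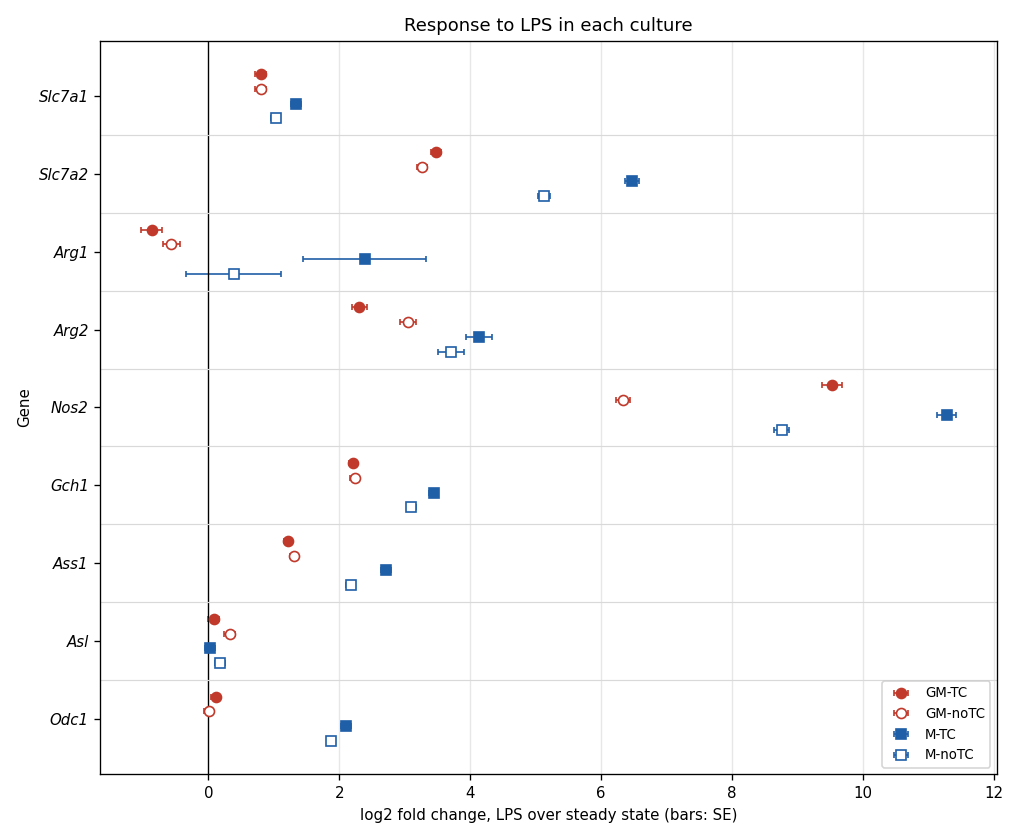
Log2 fold change of LPS over steady state for each gene (x axis) in the 4 cultures, with bars of 1 SE from edgeR. Nos2 is farthest to the right, from 6.34 in GM-noTC to 11.28 in M-TC, Arg1 in GM is left of 0, and Odc1 is at 2.10 and 1.87 in the M cultures.

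Counted over the 9 genes, LPS raised 6 and lowered 1 in GM-TC, raised 7 and lowered 1 in GM-noTC, and raised 8 and lowered none in M-TC and in M-noTC. None was lowered there at an unadjusted p under 0.05 in edgeR, and DESeq2 called none lower at an adjusted p under 0.05. The background was wide, as LPS raised 32.8% and lowered 34.2% of all genes tested for GM on TC (33.6% and 34% on noTC), and 37.6% and 36.4% for M on TC (36.4% and 35.9% on noTC). The median over the 9 genes was 1.21 on TC and 1.30 on noTC for GM, and 2.71 on TC and 2.18 on noTC for M, against between -0.05 and -0.01 over all genes. Scaling by library size only moved the median of all genes to between -0.53 and -0.83 in these comparisons, and the counts of members raised and lowered then became 6 and 3 in both GM cultures and 7 and 1 in both M cultures. The LPS response of 8 genes differed between GM and M on TC and that of 5 on noTC, where 41.1% and 36.2% of all genes did, and each of these responses had the larger value in M. On TC the difference for Nos2 was not called without GM-TC replicate 2 (-1.45, adjusted p = 0.160), nor that for Arg1 without M-TC-LPS replicate 1 (-3.06, 0.077). With library size only, which moved the median of all genes to 0.30 in this comparison, the difference for Slc7a1 was -0.19 (adjusted p = 0.188), and 7 responses were called larger in M and 1, that of Asl, larger in GM. The comparisons in which LPS, dish and growth factor were varied share groups, so their counts are not independent of each other.

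**Figure D3:**
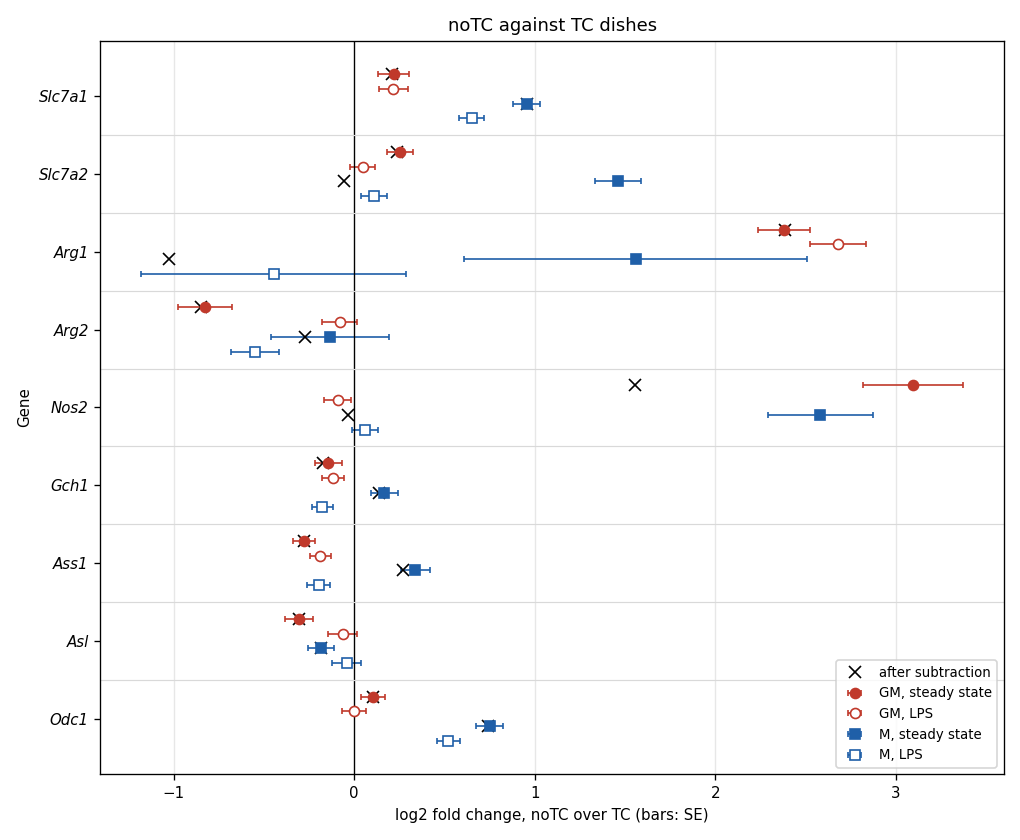
Log2 fold change of noTC over TC dishes for each gene (x axis) in GM and M at steady state and after LPS, with bars of 1 SE, and crosses for the steady state values after the subtraction of the common share. Arg1 in GM stays at 2.39 under the cross while Nos2 and Slc7a2 in M move to -0.03 and -0.06.

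Between the dishes, noTC gave higher values than TC for 3 of the 9 genes and lower values for 3 in GM at steady state, where 4.69% and 2.85% of all genes were higher and lower, and higher values for 1, Arg1, and lower for none in GM after LPS, where the shares were 2.08% and 0.727%. There edgeR gave 1 lower gene at an unadjusted p under 0.05, and DESeq2 called none lower at an adjusted p under 0.05. In M cells 5 were higher and none lower at steady state (16.1% and 11.1% of all genes), and 2 were higher and 3 lower after LPS (10.4% and 12.9%). For M at steady state edgeR gave 1 lower gene at an unadjusted p under 0.05, and DESeq2 called none lower at an adjusted p under 0.05. Of the 3 higher in GM at steady state, Slc7a2 differed by 0.25 ± 0.07 (adjusted p = 0.0292) and was not called without GM-TC replicate 2 (0.15, adjusted p = 0.199), GM-noTC replicate 1 (0.25, 0.182) or GM-noTC replicate 2 (0.25, 0.167), nor after the subtraction (0.24, 0.159). In the M counts at steady state Nos2 and Slc7a2 were lost with the subtraction, which left Slc7a1, Ass1 and Odc1. With library size only, the M counts after LPS became 2 higher and 1 lower, and those in GM after LPS 1 and 1. The dish effect depended on LPS for 1 gene in GM (Nos2) and 4 in M (Slc7a2, Nos2, Gch1 and Ass1), where 0.783% and 10.6% of all genes did so, and on the growth factor for 4 genes at steady state and 3 after LPS, against 11.2% and 10.6%. After the subtraction the dependence on LPS was not called for Nos2 in GM (-1.65, adjusted p = 0.281), nor for Nos2 and Slc7a2 in M, and the dependence of Slc7a2 on the growth factor at steady state turned from -1.20 ± 0.15 to 0.29 and was not called (adjusted p = 0.494). The dependence of Gch1 in M, -0.34 ± 0.10, was not called without M-TC replicate 1 (-0.26), M-noTC replicate 1 (-0.31) or 2 (-0.36), M-TC-LPS replicate 1 (-0.34) or M-noTC-LPS replicate 1 (-0.35) or 2 (-0.34). After LPS the dependence on the growth factor was not called for Slc7a1 without GM-TC-LPS replicate 2 (-0.38, adjusted p = 0.066) or M-noTC-LPS replicate 1 (-0.34, 0.067), nor for Arg1 without M-TC-LPS replicate 1 (2.93, 0.153).

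Between the growth factors, GM was higher than M for 6 genes and lower for 2 on TC at steady state (32.6% and 28.9% of all genes), and for 7 and 2 on noTC (31.4% and 30.7%). After LPS 4 were higher and 4 lower on either dish, where 33.9% and 32.9% of all genes differed on TC and 33.5% and 32.6% on noTC. The 4 genes higher in GM after LPS were Slc7a2, Arg1, Arg2 and Ass1, and the 4 lower were Slc7a1, Nos2, Gch1 and Odc1. The higher summed levels of neutrophil and dendritic cell markers in the GM cultures moved with these differences, and their part was not tested.

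**Figure D4:**
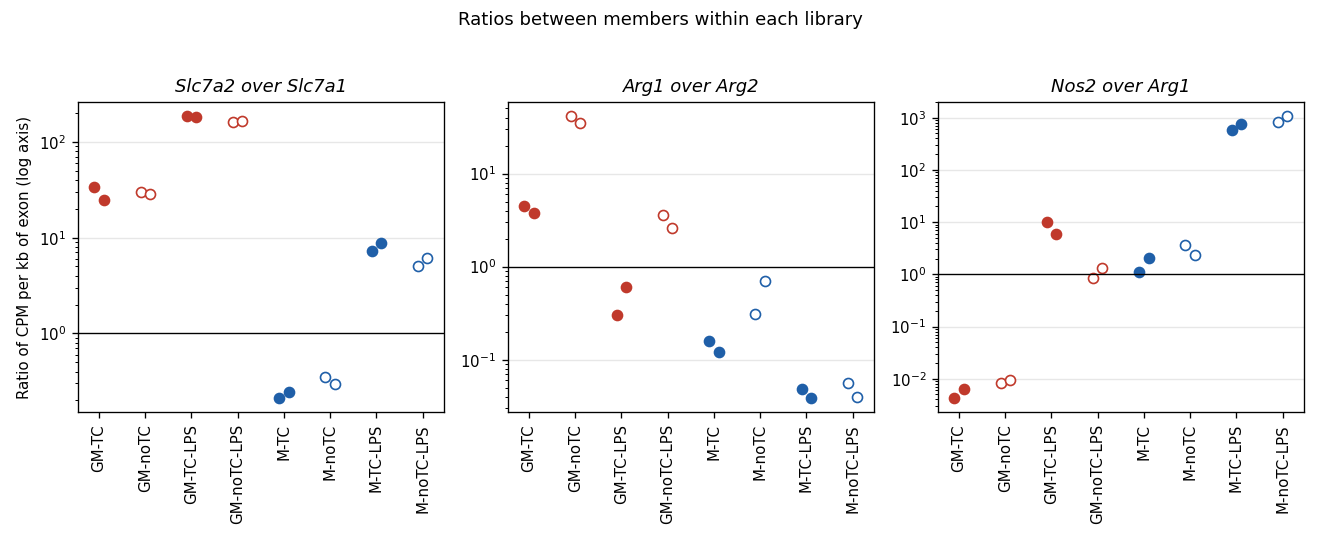
Ratio of the level per kb of exon between 2 genes of the same library, on a log axis, for the 16 libraries, with a line at 1. Arg1 over Arg2 crosses 1 between GM-TC and GM-TC-LPS, and Nos2 over Arg1 in GM-noTC-LPS lies around 1, at 0.864 and 1.30.

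Levels were compared between genes only per kb of exon within a library, with the union of exons in GENCODE vM21 as the length. Slc7a2 exceeded Slc7a1 by 33.5 and 24.8 times in GM-TC, 29.9 and 28.9 times in GM-noTC, 187 and 180.3 times in GM-TC-LPS, and 162 and 163 times in GM-noTC-LPS. In M cells the ratio was 0.211 and 0.246 in M-TC and 0.354 and 0.299 in M-noTC, and with LPS it turned over, to 7.31 and 8.84 on TC and to 5.03 and 6.07 on noTC. The transporter with more transcripts per length therefore changed with LPS in M cells and not in GM cells. For the arginases the ratio of Arg1 to Arg2 in GM cells at steady state was 4.49 and 3.77 on TC and 41.6 and 34.6 on noTC, and with LPS it was 0.299 and 0.605 on TC and 3.55 and 2.62 on noTC. After LPS Arg1 was thus the lesser arginase transcript on TC dishes and the greater on noTC dishes, while in the 8 M libraries the ratio was between 0.0387 and 0.699. Nos2 exceeded Arg1 by 10.1 and 5.85 times in GM-TC-LPS and by between 579 and 1084 times in M cells after LPS, but the ratio was 0.864 and 1.30 in GM-noTC-LPS. With the length of the longest coding transcript in place of the union of exons, which was chosen after seeing the data, the ratio of Arg1 to Arg2 became 0.451 and 0.913 in the GM-TC-LPS libraries and 5.36 and 3.96 in the GM-noTC-LPS libraries, and the ratio of Nos2 to Arg1 was 0.603 and 0.910 in the GM-noTC-LPS libraries. The same lengths put Arg1 over Arg2 at 1.05 in M-noTC replicate 2 and Nos2 over Arg1 at 0.763 in M-TC replicate 1, each on the other side of 1.

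Of 56 other genes of the route in 5 lists, 43 were tested. LPS raised 10 and lowered 18 of them in both GM cultures, raised 13 and lowered 14 in M-TC, and raised 13 and lowered 15 in M-noTC, where between 32.8% and 37.6% of all genes rose and between 34% and 36.4% fell, with medians between -0.22 and 0.05, and with library size only it raised between 1 and 4 and lowered between 29 and 32. Those with the largest changes included Slc3a2, which encodes the heavy chain that pairs with several amino acid transporters, at 463 ± 1.08 CPM in GM-TC-LPS against 103 ± 11.4 CPM in GM-TC (SD, n = 2; adjusted p = 4.0e-18 in edgeR). In M cells Slc3a2 rose by 1.31 ± 0.06 on TC (adjusted p = 2.0e-14) and 0.85 ± 0.06 on noTC (4.2e-11). Of 17 polyamine genes tested, LPS raised 8 or 9 and lowered between 3 and 5. Sat1, the acetyltransferase that starts polyamine breakdown, rose by 1.29 ± 0.06 in M-TC (adjusted p = 2.2e-15) and 1.52 ± 0.06 in M-noTC (1.1e-16). In GM cells Sat1 rose by 1.20 ± 0.05 on TC (8.6e-15) and 1.12 ± 0.05 on noTC (2.9e-14). Spermine synthase (Sms) rose by 1.29 ± 0.08 on TC (3.7e-12) and 1.17 ± 0.08 on noTC (1.2e-11) in GM cells. In M cells Sms rose by 0.90 ± 0.07 on TC (2.4e-10) and 0.79 ± 0.07 on noTC (1.1e-09). The polyamine oxidase gene Paox fell in all 4 cultures, with values from -1.36 ± 0.15 in M-TC (2.8e-08) to -1.76 ± 0.17 in GM-TC (9.2e-09). None of the 5 tetrahydrobiopterin genes tested was called higher with LPS in edgeR or in DESeq2, nor higher at an unadjusted p under 0.05 in edgeR. Of them 2 or 3 fell, where between 34% and 36.4% of all genes fell. In the list of nitric oxide synthases, their partners and the nitric oxide receptor, 6 of 10 genes were tested, and Nostrin, which encodes a trafficking partner of the endothelial synthase, fell by 1.42 ± 0.12 on the log2 scale in M-TC (adjusted p = 2.9e-10) and 1.32 ± 0.11 in M-noTC (2.1e-10). Nostrin also fell in GM cells, by 0.71 ± 0.12 on TC (2.6e-05) and 0.69 ± 0.12 on noTC (2.6e-05).

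In GM cells at steady state 1 of these 43 genes was called lower on noTC, Oaz2 of the antizymes that inhibit ornithine decarboxylase (-0.44 ± 0.10, adjusted p = 0.00996). Of all genes 4.69% were higher and 2.85% lower there. At an unadjusted p under 0.05 edgeR gave 5 higher and 2 lower pathway genes. After LPS none was called in GM by edgeR or DESeq2, where 2.08% of all genes were higher and 0.727% lower. There edgeR gave 7 lower at an unadjusted p under 0.05. In M cells 14 were higher and 7 lower on noTC at steady state, and 9 were higher and 4 lower after LPS, which compares with 16.1% and 11.1% of all genes at steady state and 10.4% and 12.9% after LPS. Aldh18a1, which leads from glutamate to proline and ornithine, was higher by 0.69 ± 0.09 at steady state (adjusted p = 2.4e-06) and 1.06 ± 0.10 after LPS (1.4e-07). Slc7a7, a transporter that exports cationic amino acids, was lower, at -0.62 ± 0.10 (adjusted p = 4.1e-05) and -0.66 ± 0.09 (1.9e-05). Between the growth factors, 18 were higher in GM and 12 lower on TC at steady state, 17 and 13 on noTC, 16 and 11 on TC after LPS, and 13 and 15 on noTC after LPS, where between 31.4% and 33.9% of all genes were higher and between 28.9% and 32.9% lower. Scaling by library size only turned the steady state majority, to 12 higher and 21 lower on TC and 9 and 20 on noTC. The median of all genes was then -0.29 on either dish. After LPS the counts became 17 and 11 on TC and 12 and 16 on noTC. Nags, whose product makes the activator of the urea cycle, was at 7.64 ± 0.87 CPM in GM-TC and 6.64 ± 0.41 CPM in GM-noTC, and had no counts in M-TC-LPS and M-noTC-LPS, where GM had 1.26 ± 0.32 and 1.91 ± 0.01 CPM (SD, n = 2). Ddah2, from the list of nitric oxide synthases and their partners, was lower in GM, at -3.85 ± 0.34 on TC (adjusted p = 1.6e-09) and -2.94 ± 0.26 on noTC (1.7e-09) at steady state. Its level was low, at 0.272 CPM in GM-TC and 0.640 CPM in GM-noTC, against 3.94 CPM in M-TC and 4.92 CPM in M-noTC.

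As a description of pattern, the genes whose log2(CPM + 1) followed each member most closely over the 16 libraries were found by Pearson's r, with no p since libraries of a group share their conditions. Nos2 was closest to Cd69 (r = 0.997), Ptgs2 (0.996) and Lcp1 (0.995), Gch1 to Usb1, Acot9 and Wars (0.998 each), and Arg1 to Col24a1 (0.990), Gata2 (0.988) and Pacsin1 (0.987). Arg2 was closest to Serinc1 (0.992), Slc7a11 (0.990) and Lap3 (0.990), Slc7a2 to Plpp3 (0.994), and Ass1 to Nus1 (0.995). The flat gene Asl had no neighbour above 0.884 (Mthfs). Within the 9 genes, Nos2 and Gch1 had r = 0.985, Slc7a2 and Ass1 0.978, and Arg1 and Asl -0.733.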

How the data were processed

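Libraries of mRNA enriched on oligo(dT) beads were sequenced, reads were aligned to a mouse genome with HISAT2, and the authors quantified genes with RSEM and deposited expected counts, 1 column per library. Their processing notes also list fastp 0.18.0, Bowtie2 2.2.8 and StringTie 1.3.1, with no role given. The genome build and annotation are not given in the sources used here, nor is a strand setting. Groups were taken from the sample titles.

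The deposited expected counts were rounded and tested with edgeR 4.0.16 (quasi-likelihood, 1 model over 8 groups) in R 4.3.3, with TMM scaling and filterByExpr, which kept 12514 of 16756 genes with a count. The biological coefficient of variation was 4.75%. Changes were called at a Benjamini-Hochberg adjusted p under 0.05 over all genes tested. The script was tested on simulated data. Alternatives were DESeq2 1.42.0, its size factors, library size only, no filter, a replicate block, only the libraries compared, leaving out each library, the study's kind of threshold (unadjusted p with a fold change above 2) and the subtraction described with Nos2. An exact permutation test of 2 against 2 libraries cannot go below p = 0.333.

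The 9 genes and the pathway and marker lists were chosen with earlier results of these data known. Every one of the 9 genes was named, with up to 2 called pathway genes per direction and comparison at 1 CPM or more in the higher group, and the 3 genes nearest to a member in pattern. Gene positions, lengths and coding sequences came from GENCODE vM21 (GRCm38), and promoters from RefSeq (GRCm38.p6), where 4 of the 9 genes had an entry. Totals per library set the counting precision, and 3 counts were taken as the floor. A pathway gene and a stretch of sequence are not reported here.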

Additional observations from a re-analysis of the deposited data

Results flagged for a closer look

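For 25 effects on the 9 genes, the test of a difference between conditions was passed in edgeR's model over all genes. Each value is a difference of 2 log2 fold changes.

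The dish effect (noTC minus TC) after LPS minus that at steady state was -3.19 for Nos2 in GM. In M it was -1.35 for Slc7a2, -2.52 for Nos2, -0.34 for Gch1 and -0.54 for Ass1. With the subtraction of the common share, the value was -1.65 for Nos2 in GM, 0.09 for Nos2 in M and 0.17 for Slc7a2 in M, none of them called.

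The dish effect in GM minus that in M at steady state was -0.74 for Slc7a1, -1.20 for Slc7a2, -0.62 for Ass1 and -0.65 for Odc1. With the subtraction the Slc7a2 value was 0.29 and was not called. After LPS it was -0.43 for Slc7a1, 3.13 for Arg1 and -0.53 for Odc1, and the Arg1 value rested on between 12 and 21 counts per library in M.

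The LPS response in GM minus that in M on TC dishes was -0.54 for Slc7a1, -2.998 for Slc7a2, -3.25 for Arg1, -1.82 for Arg2, -1.75 for Nos2, -1.23 for Gch1, -1.50 for Ass1 and -1.99 for Odc1. With library size only the Slc7a1 value was -0.19 and was not called. On noTC dishes it was -1.86 for Slc7a2, -2.42 for Nos2, -0.86 for Gch1, -0.87 for Ass1 and -1.87 for Odc1.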

How the results depend on the processing

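Of 1504 values of single genes under the alternatives, 1405 kept their direction and their side of the threshold, 59 lost the call, 11 gained it and 29 changed sign. The cause was not tested.

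With library size only, LPS values turned for Asl to -0.40 (GM-TC), -0.18 (GM-noTC), -0.796 (M-TC) and -0.55 (M-noTC), to -0.37 and -0.51 for Odc1 in GM-TC and GM-noTC, and to -0.33 for Arg1 in M-noTC. The dish value of Asl in M after LPS became 0.0453, and growth factor values at steady state became -0.10 for Nos2 on TC and -0.10 for Gch1 on noTC. With only the libraries compared, Asl in M-TC was -0.0229 upon LPS. The dish value of Odc1 in GM after LPS was 0.00625 with DESeq2 size factors, 0.00575 with no filter and 0.00621 with DESeq2. With the subtraction, dish values in M at steady state were -0.0570 for Slc7a2, -1.02 for Arg1 and -0.0329 for Nos2, the dish by LPS values in M were 0.17 for Slc7a2 and 0.0921 for Nos2, and the dish by growth factor value of Slc7a2 at steady state was 0.29, no longer called. The LPS value of Arg1 in M-noTC then became 2.97 (adjusted p = 0.0197 in edgeR). This value rested on a level near the floor. The subtraction left Arg1 at 0.101 CPM in M-noTC with library size only, where 3 counts were 0.140 and 0.0954 CPM.

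Without 1 library, signs changed for Odc1 upon LPS in GM-noTC (from -0.0378 to 0.0524), for Nos2 (from -0.23 to 0.0378) and Odc1 (from -0.0425 to 0.0371) by dish in GM after LPS, for Arg2 by dish in M at steady state (from -0.60 to 0.33), for Nos2 by growth factor on TC at steady state (from -0.0865 to 0.40) and for Arg1 by dish and LPS in GM (from -0.0838 to 0.87).

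Of the 9 genes, an unadjusted p with a fold change above 2 called 5 for LPS in GM-noTC, 2 for the dish in GM and 2 in M at steady state, 0 for the dish in M after LPS, 5 each for the growth factor on TC at steady state, on TC after LPS and on noTC at steady state, 2 for dish by LPS in M, 1 each for dish by growth factor at steady state and after LPS, and 3 for growth factor by LPS on noTC. With only the libraries compared, 3 were called for the dish in GM at steady state and 2 after LPS. With library size only, 2 were called for the dish in GM and 3 in M after LPS. With the subtraction, 3 were called for the dish in M at steady state, 0 for dish by LPS in GM and 2 in M. With no filter or with DESeq2, 2 were called for dish by LPS in GM. Without 1 library, between 3 and 6 were called for the dish in GM at steady state, between 2 and 4 for the dish in M after LPS and between 1 and 3 for dish by LPS in GM.

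Libraries with the same replicate number did not deviate together (r between -0.069 and 0.062 over genes). Neither the study nor the labels say whether the numbers pair libraries, and these values cannot settle it. The replicate block changed 1 call, that of Asl upon LPS in M-noTC (0.17, adjusted p = 0.0518 in edgeR, with 7 genes called in place of 8). Depth limits Arg1 in M cells and Nos2 and Arg2 at steady state, where libraries held as few as 3, 9 and 16 counts.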
